A study of Mus musculus with 8 samples.

Results

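Contacts between different autosomes were examined in activated mouse B cells by in situ Hi-C. This assay cuts crosslinked chromatin with MboI and ligates ends that lie close together in the nucleus, so that a sequenced read pair stands for a contact. Every read pair whose ends lay on different autosomes was taken and summed over every pair of the 19 autosomes and over pairs of 1 Mb bins of the GRCm38 assembly. Pairs with both ends in the first 20 Mb of their chromosomes were left out, because mouse chromosomes have the centromere at one end and these ends gather in clusters of their own. This left 2626865 of the 2833390 pairs of 1 Mb bins that the autosomes hold, contacts within a chromosome included, and of these 2220415 had a mean count of at least 5 per library and were tested. In each library, between 21980552 and 58160269 read pairs fell in these pairs of bins, of 88703088 to 218945191 read pairs in all.

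The cells were splenic B cells of mice described as male and 6 to 12 weeks old. The background was C57BL/6 Pep3b (C57BL/6 in the labels). The cells were labelled with a dye (CTV) that is diluted at each division. They were cultured with lipopolysaccharide (LPS) at 25 µg/ml, a bacterial product that activates B cells. There were 4 groups of 2 libraries. The first 3 groups were collected 3 h, 10 h and 33 h after activation as undivided CD69+ B cells, and the 33 h group is called imminent division. These 3 groups were not sorted by cell cycle phase. The 4th group, pre-S, was collected at 33 h from mice that carry the FUCCI transgenes, a reporter of cell cycle phase, and held cells sorted before DNA synthesis, so strain, reporter and gate cannot be told apart from the group. No untreated cells were among the 8 libraries, and every group had LPS. The replicates are described as biological, without saying whether they came from separate animals, so the tests measure the spread between these libraries.

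In interphase each chromosome occupies its own territory, and contacts between chromosomes form where territories meet and where loops of active chromatin leave them. Gene-dense, active chromatin (the A compartment) tends to meet other active chromatin, and silent chromatin (the B compartment) meets silent chromatin, often at the nuclear edge. In a Hi-C map of many cells these contacts are sparse, and a contact made by more cells cannot be told apart from one made more often in each cell.

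Contacts are recorded only at MboI cutting sites, the letters GATC, which read the same on both strands. Promoters of Foxo1, Pax5 and Btg1 are shown because the 1 Mb bins of Foxo1 and Pax5 recur among the called pairs and that of Btg1 lies in one of the highest pairs, and the sites through which the assay sees them stand in capitals. Foxo1 encodes a transcription factor of B cell development, Pax5 the factor that maintains B cell identity, and Btg1 an inhibitor of proliferation. The RefSeq sequences (GRCm38.p6, 300 bases across the gene start, most of them upstream, written along the gene's strand) lie at chr3:52268087-52268386 (+), chr4:44710645-44710944 (-) and chr10:96616751-96617050 (+).
Foxo1: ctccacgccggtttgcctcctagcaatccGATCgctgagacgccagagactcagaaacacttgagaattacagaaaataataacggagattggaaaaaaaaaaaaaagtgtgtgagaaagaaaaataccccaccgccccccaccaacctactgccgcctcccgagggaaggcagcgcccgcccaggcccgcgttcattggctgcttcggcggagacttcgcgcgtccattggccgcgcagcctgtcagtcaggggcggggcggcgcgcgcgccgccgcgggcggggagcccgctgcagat
Pax5: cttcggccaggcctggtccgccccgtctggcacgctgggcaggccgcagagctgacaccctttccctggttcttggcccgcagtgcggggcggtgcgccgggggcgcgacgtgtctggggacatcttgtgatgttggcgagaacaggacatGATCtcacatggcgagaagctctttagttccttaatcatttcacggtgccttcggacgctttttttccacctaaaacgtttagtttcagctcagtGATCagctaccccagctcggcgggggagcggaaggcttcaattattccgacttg
Btg1: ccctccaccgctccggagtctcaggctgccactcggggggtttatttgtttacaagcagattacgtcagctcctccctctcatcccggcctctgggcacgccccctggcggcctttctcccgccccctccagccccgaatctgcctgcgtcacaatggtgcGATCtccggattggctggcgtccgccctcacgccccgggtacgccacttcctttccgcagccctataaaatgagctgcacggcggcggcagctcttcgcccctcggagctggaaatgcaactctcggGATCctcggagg
The site occurred once in the Foxo1 promoter and 2 times in each of the other two. Of 32851 promoters of this length, 48.0% held at least 1 such site. All counts below were summed over bins of 50 kb or 1 Mb, far wider than a promoter.

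Each count was divided by the value expected from the interchromosomal coverage of its 2 bins or chromosomes (observed over expected, O/E), so that 1 is the typical contact of those partners and a rise with 1 partner goes with falls elsewhere. The share of autosomal read pairs that joined different autosomes was 26.75% and 25.24% at 3 h, then 24.94% and 25.44% at 10 h, then 28.74% and 29.08% at imminent division, and 25.86% and 27.95% in pre-S. Imminent division was highest and did not overlap with any other group, but the difference among groups did not pass the test (exact permutation test of 12 measures, adjusted p = 0.1796). The 2nd imminent division library stood apart on the sex chromosomes, with 3.74% of read ends on X and 0.0490% on Y, against 2.39% to 2.84% and 0.0804% to 0.123% in the other 7. The methods state male mice, and whether this library came from male mice was not tested. Sex chromosomes entered no comparison, and the main counts of calls are also given without that library.

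Among the autosomes, the share of read pairs that left the chromosome was highest on the shortest. Chromosome 19, the shortest, had the highest mean share, 36.07% ± 0.862 at 3 h and 38.66% ± 0.284 at imminent division (SD, n = 2), and chromosome 1, the longest, had the lowest, 20.36% ± 1.160 at 3 h and 19.70% ± 0.203 at 10 h. None of the 19 shares passed the exact permutation test after adjustment over 19, and 5 had an unadjusted p under 0.05.

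Broad classes of chromatin met their own kind on other chromosomes in all 8 libraries. Pairs of 2 A bins had O/E of 1.33 and 1.374 at 3 h, then 1.384 and 1.382 at 10 h, then 1.398 and 1.36 at imminent division, and 1.472 and 1.424 in pre-S. Pairs of an A and a B bin lay between 0.6491 and 0.7 in every library. The pre-S libraries held the highest A-A values of the 4 groups, yet the difference among groups did not pass (adjusted p = 0.1524).

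The fifth of bins with the fewest genes (at most 1 gene start per Mb) also met each other often. Their O/E was 1.84 and 1.831 at 3 h, then 1.796 and 1.786 at 10 h, then 1.738 and 1.784 at imminent division, and 1.682 and 1.629 in pre-S. Group means were lower with each group in the order listed, the last 2 of which were both collected at 33 h. All pre-S values lay below those of the other 6 libraries. The exact permutation test gave p = 0.00952, the smallest this design allows, which became 0.06857 after adjustment over the 12 measures. Pairs of 2 gene-dense bins (at least 14 gene starts) had group means of 1.576 ± 0.0436, 1.6 ± 0.000459, 1.552 ± 0.0248 and 1.608 ± 0.0495 (SD, n = 2) in the same order of groups, with imminent division below 10 h and pre-S without overlap. No measure of the 12 passed at an adjusted p of 0.05.

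Position along the chromosome was read in the same way. Contacts between the last 20 Mb of different chromosomes had mean O/E of 1.112 ± 0.0024 at 3 h, then 1.108 ± 0.00456 at 10 h, then 1.142 ± 0.00955 at imminent division and 1.095 ± 0.00461 in pre-S (SD, n = 2). Contacts between the first 20 Mb of a chromosome and the last 20 Mb of another were rarer than expected throughout, at 0.8425 ± 0.000579, 0.8438 ± 0.00337, 0.8333 ± 0.00433 and 0.867 ± 0.00255. Imminent division and pre-S thus lay on opposite sides of the early groups in both measures, with adjusted p = 0.06857 for each (exact permutation test).

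The pattern of which chromosomes met was much alike in all groups. At 3 h the highest values were those of chromosomes 11 with 19 (O/E 1.378 and 1.409 in the 3 h libraries), 15 with 19 (1.375 and 1.393) and 17 with 19 (1.217 and 1.22). Chromosomes 11, 17 and 19 hold 13.77, 11.48 and 12.31 gene starts per Mb and chromosome 15 holds 7.77. Next came the pair of long chromosomes 1 and 3 (1.192 and 1.202). The lowest were chromosome 1 with 19 (0.7178 and 0.7115) and 3 with 19 (0.7351 and 0.7166). The shortest chromosome, 19, thus had a part in the 3 highest pairs as in the 2 lowest, and its partners in the lowest were long chromosomes.

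Over all pairs of autosomes, the log2 O/E at 3 h had r = -0.419 with the difference of the partners' log10 lengths and r = -0.188 with the difference of their gene densities, as a description over pairs that share chromosomes. With the sum of their gene densities, r was 0.001. Chromosome 7, with the most gene starts per Mb (14.12), had O/E of 0.8801 and 0.8822 with chromosome 19 at 3 h. Chromosomes 12, 15, 16, 18 and 19 are those listed as carrying ribosomal RNA genes near their centromeres. Outside the left-out proximal ends, the 10 pairs among them had a median O/E of 1.06 at 3 h and 1.079 at imminent division, against 1.009 and 1.014 for the 91 pairs without such a chromosome. The 70 pairs with 1 such chromosome lay lowest, at 0.9705 and 0.9547. The listed chromosomes are among the shorter autosomes, from 61431566 to 120129022 bases, and the part of length in these values was not tested. Between libraries, the log2 O/E values of the pairs of autosomes had r of at least 0.9969 within and between the 3 h and 10 h groups and within each 33 h group. They had r of 0.9583 to 0.9699 between imminent division and every other group, and r of 0.9807 to 0.9882 between pre-S and the early groups.

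**Figure D1:**
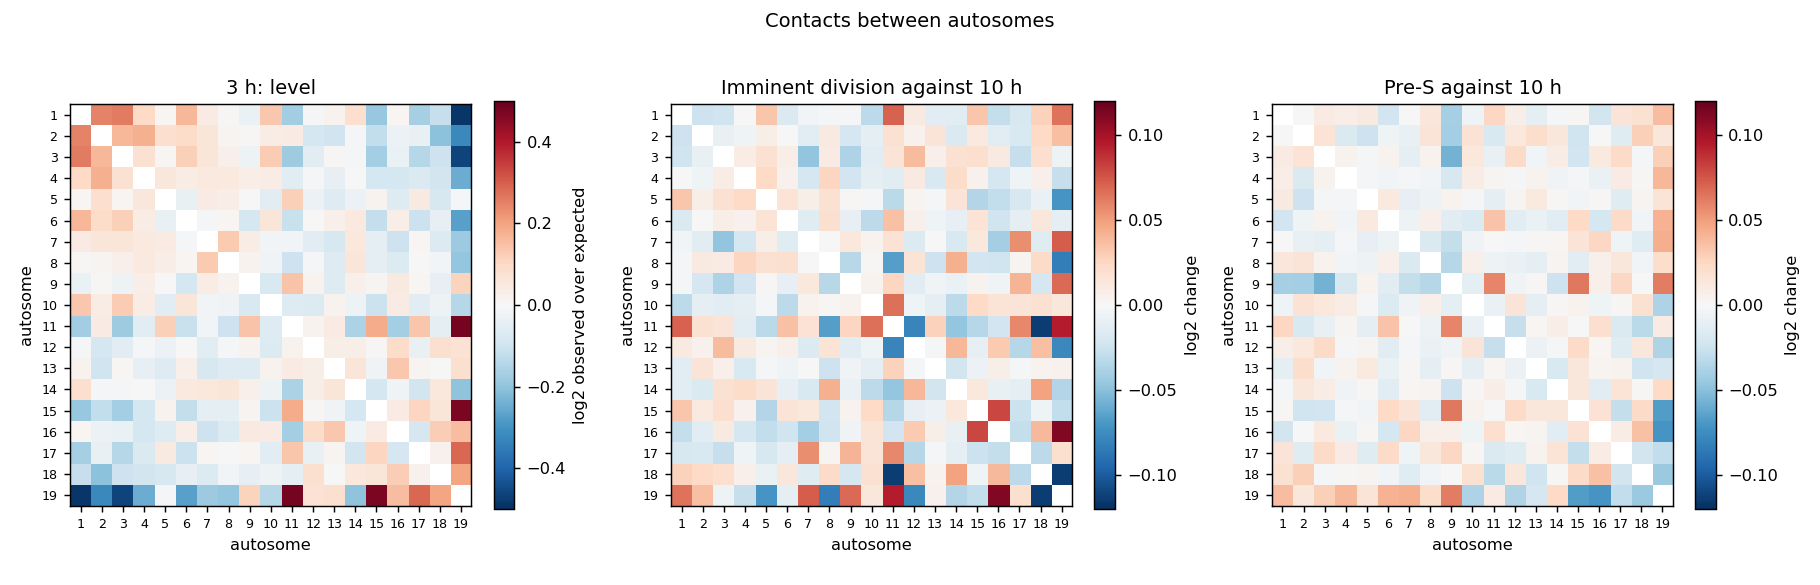
Contacts of each pair of autosomes, as the log2 O/E at 3 h (left, mean of 2 libraries) and as the log2 change from 10 h to imminent division (middle) and to pre-S (right), with red for more and blue for fewer contacts. The level is highest for 11 with 19 and lowest for 1 with 19. Changes at imminent division reach 0.111 and -0.114 and centre on chromosomes 11 and 19. Those in pre-S are widest along chromosomes 9 and 19, down to -0.071 for 16 with 19, a pair that was not called in pre-S.

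From 3 h to 10 h no pair of autosomes was called. For some pairs, 3 with 19 (log2 -0.021) among them, the test statistic was near 0 and gave no SE. The lack of calls therefore does not show that nothing changed. The log2 changes ran from -0.021 to 0.019, and 0.0% of the pairs were called by edgeR's quasi-likelihood test with Benjamini-Hochberg adjustment at a false discovery rate of 5%, with 4 pairs under an unadjusted p of 0.05 and 0 calls by DESeq2. From 10 h to imminent division, 65.5% of pairs were called, 53 that rose (31.0%) and 59 that fell (34.5%). The changes were small, from -0.114 to 0.111 on the log2 scale, and every pair held at least 83498 read pairs in each 10 h library. Of the named pairs, those with the largest changes involved chromosomes 11, 16, 18 and 19.

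Chromosome 16 with 19 rose most. O/E was 1.123 and 1.105 at 3 h, then 1.139 and 1.098 at 10 h, then 1.205 and 1.21 at imminent division, and 1.067 and 1.062 in pre-S. The imminent division libraries lay above all others and the pre-S libraries below all others. The log2 change was 0.111 ± 0.009 (SE; edgeR adjusted p = 4.05e-05). This SE, like all those given with edgeR changes, was derived from the F statistic and is not the spread of the replicates of that pair. Chromosome 11 with 19, the highest pair at 3 h, rose from 1.379 and 1.397 at 10 h to 1.495 and 1.469 at imminent division, above every other library (log2 0.094 ± 0.013, edgeR adjusted p = 0.000644). The other named rises were 15 with 16 (log2 0.080) and 7 with 19 (log2 0.073).

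Chromosome 18 lost contact with both 11 and 19. With chromosome 11 its O/E was 0.9654 and 0.9744 at 3 h, then 0.9674 and 0.9699 at 10 h, then 0.8919 and 0.8979 at imminent division, and 0.9438 and 0.9507 in pre-S. The imminent division libraries were lowest, the pre-S libraries lay between, and the log2 change from 10 h was -0.114 ± 0.006 (SE; edgeR adjusted p = 5.54e-06). With chromosome 19 it went from 1.145 and 1.137 at 10 h to 1.046 and 1.063 at imminent division (log2 -0.114 ± 0.010, edgeR adjusted p = 5.02e-05). The other named falls were 8 with 19 (log2 -0.083) and 11 with 12 (log2 -0.079). Without 10 h replicate 2 the calls of this comparison numbered 55, without 10 h replicate 1 they numbered 75, and without the library that stood apart on X they numbered 127. When library totals scaled by TMM factors were corrected for, and not chromosome coverage, 63 pairs were called. Of these, 39 matched the sign given here and 6 opposed it. This setting is called library totals alone below.

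**Figure D2:**
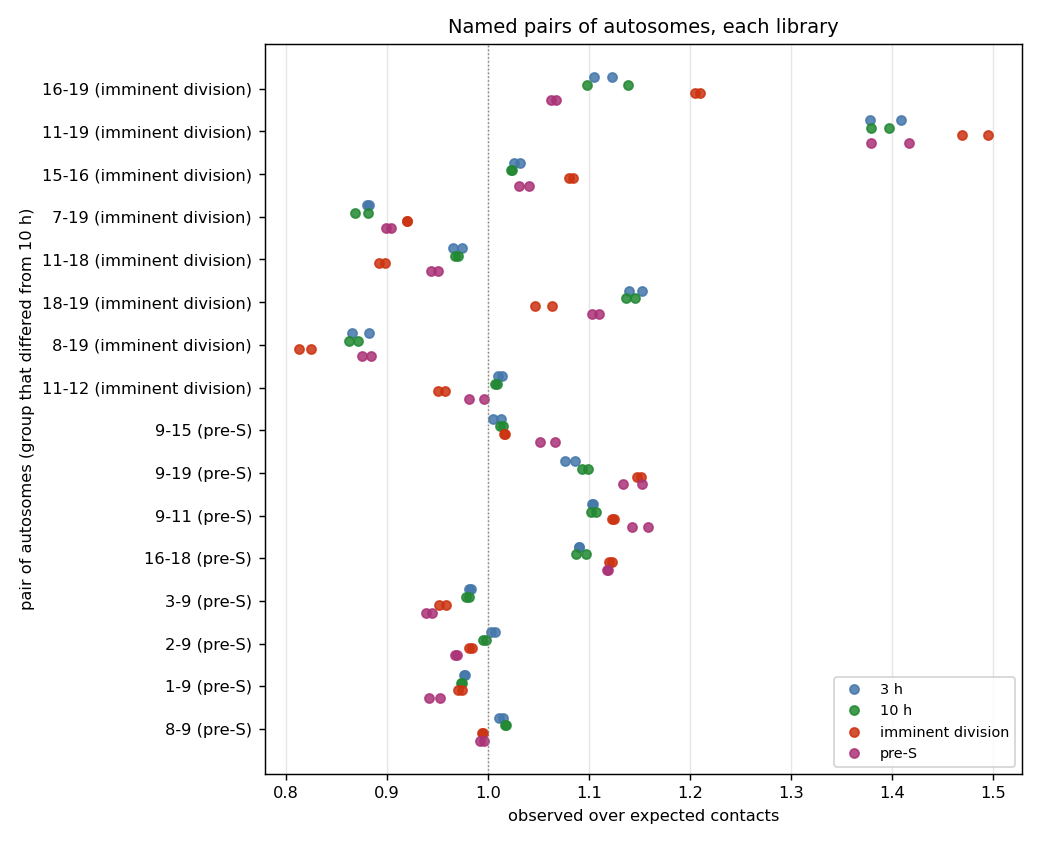
O/E of the named pairs of autosomes in each of the 8 libraries, with 1 point per library and the group that differed from 10 h in brackets. The 2 imminent division points lie beyond both 10 h points in each of the first 8 pairs, as the pre-S points do in each of the last 8.

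Among pairs of 1 Mb bins, 10 h against 3 h gave 1 call (4.5e-05% of 2220415). It joined a bin of chromosome 6 (chr6:32999249-34000110, with Chchd3 and Exoc4) to a bin of chromosome 16 with Hes1, a transcriptional repressor downstream of Notch (chr16:30000234-31000010). Counts were 9 and 16 at 3 h, then 43 and 42 at 10 h, then 28 and 29 at imminent division, and 15 and 16 in pre-S (log2 1.750 ± 0.303, edgeR adjusted p = 0.0237). The 10 h libraries lay above all others. Without 3 h replicate 2, or without either 10 h library, no pair was called in this comparison, and DESeq2 called 0.

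From 10 h to imminent division, 503 pairs of bins were called (0.0227% of those tested), 191 that rose (0.0086%) and 312 that fell (0.0141%). With coverage corrected for, 63.4% of the rises and 67.3% of the falls joined 2 A bins, as did 15.8% of all pairs tested. A pair with more counts is more easily called, and these shares were not adjusted for counts. With coverage corrected for, rises and falls differed in where they lay. Of the rises, 31 (16.2%) joined bins in the last 5 Mb of both chromosomes, a class that made up 0.169% of pairs tested, and no fall did. Of the falls, 44 (14.1%) had at least 1 end in the bin of a B cell locus from an 18-gene list, as did 13 of the rises (6.81%) and 1.49% of pairs tested. These shares carry no test, and the list was chosen with earlier results of these data known. Of its 18 bins, 14 lay in the A compartment, as did both ends of most falls. Without imminent division replicate 2, 31 rises and 24 falls were left. Some of these rises joined the last 5 Mb of both chromosomes, and none of these falls lay there or at a B cell locus. With so few falls left, it cannot be told whether that library carried the share with an end in the bin of a B cell locus. Without replicate 1 of the group, 16 of 70 falls (22.9%) had such an end. DESeq2 called 1 pair with the same offsets, and leaving out a library of the 2 groups left between 14 and 108 calls, 14 of them without 10 h replicate 2 and 55 without imminent division replicate 2. The median SE of the log2 change was 0.397 over all pairs tested, so small changes in a typical pair could not be called. The part of depth in this was not tested. The shares also moved with the scaling. With library totals alone, 917 rises and 1235 falls were called. Pairs of 2 A bins made up 79.3% of those rises and 43.5% of those falls. Pairs of 2 bins in the last 5 Mb made up 4.58% and 0.243%. Pairs with an end in the bin of a B cell locus made up 5.56% and 4.45%, so falls no longer held the larger share.

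The rise with the smallest p joined the last bin of chromosome 2 (chr2:181000136-182000281, with Chrna4, a neuronal acetylcholine receptor subunit) to the last bin of chromosome 11 (chr11:120999935-121982100, with Cd7 and Sectm1b). Its counts were 53 and 103 at 3 h, then 72 and 95 at 10 h, then 330 and 396 at imminent division, and 105 and 121 in pre-S. In O/E these were 3.32 and 4.04, 3.69 and 3.76, 8.81 and 8.03, and 5.52 and 6.32. The imminent division libraries were the highest, pre-S lay between them and the early groups, and no values of 10 h and imminent division overlapped (log2 1.169 ± 0.131 SE, edgeR adjusted p = 4.62e-12). This was the pair that DESeq2 also called, and it was called under all 16 settings at this bin size, the reported one included.

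Another pair of chromosome ends rose in the same comparison. The last bin of chromosome 16 (chr16:96999885-97999723, with Mx1, an interferon-induced antiviral GTPase, Bace2 and Dscam) and the end bin of chromosome 19 (chr19:60000069-60999808, with Cacul1) had O/E of 1.86 and 1.55 at 3 h, then 1.56 and 1.93 at 10 h, then 3.38 and 3.4 at imminent division, and 2.49 and 2.29 in pre-S. The order of the groups was that of the pair of chromosomes 2 and 11 (log2 0.935 ± 0.142, edgeR adjusted p = 2.43e-05). The ends of chromosomes 1 and 15 (chr1:193999918-195000076 with Plxna2 and Cd34, chr15:102999847-103943487 with Hoxc4) went from counts of 6 and 7 at 10 h to 55 and 43 at imminent division, with 4 and 9 in pre-S (log2 2.081 ± 0.361, edgeR adjusted p = 0.000957).

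The remaining named rise lay inside chromosomes. It joined a bin of chromosome 3 with Bank1, a scaffold protein of B cell receptor signalling, and Ppp3ca, a catalytic subunit of calcineurin (chr3:136000050-137001050), to a bin of chromosome 6 with Jazf1 and Creb5 (chr6:52999984-54000188). O/E there was 0.999 and 1.44 at 3 h, then 0.778 and 0.922 at 10 h, then 2.62 and 2.96 at imminent division, and 1.92 and 1.38 in pre-S (log2 1.700 ± 0.295, edgeR adjusted p = 0.000957). Imminent division did not overlap with any other group. Of the 4 named rises and 4 named falls, 3 and 3 were called without imminent division replicate 2, the others being this pair and that of Bach2 given below. Without replicate 1 of that group they were 3 and 3 as well, without 10 h replicate 1 they were 1 and 4, and without 10 h replicate 2 they were 2 and 1.

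**Figure D3:**
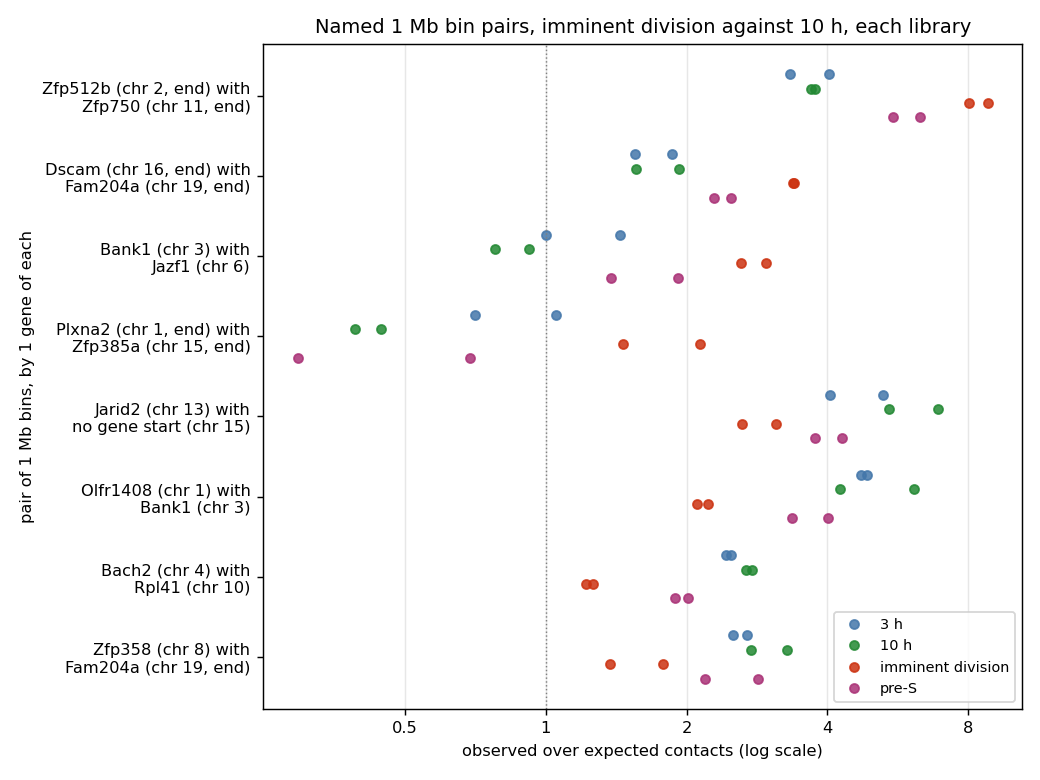
O/E (log axis) of the 8 named pairs of 1 Mb bins for imminent division against 10 h, 1 point per library, each pair labelled by a gene of either bin. The first 4 pairs are higher and the last 4 lower at imminent division than at 10 h, and the points of those groups overlap in none.

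Contacts between the far ends of chromosomes, where the telomeres not next to a centromere lie, were then followed by distance. For bins centred within 1 Mb of the end, O/E was 1.733 and 1.773 at 3 h, then 1.786 and 1.719 at 10 h, then 2.492 and 2.461 at imminent division, and 1.722 and 1.823 in pre-S. Both imminent division libraries lay above all 6 others, which overlapped with each other. Of the 136 pairs of such bins, 15 rose from 10 h to imminent division (11%, against 0.0086% of all pairs tested) and 0 fell, with a median log2 change of 0.406 against 0.001 over all pairs tested. The rises numbered 8 without imminent division replicate 2, the library that stood apart on X, and 7 without replicate 1 of that group. They numbered 4 and 2 without 10 h replicates 1 and 2, and 1 by DESeq2, and the median log2 change lay between 0.372 and 0.485 in these settings. In pre-S the median was -0.101 and 0 pairs were called.

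The excess faded with distance from the end. Within 2 Mb the mean O/E at imminent division was 1.715 against 1.386 at 10 h, within 5 Mb 1.322 against 1.208, within 10 Mb 1.207 against 1.153, and within 20 Mb 1.142 against 1.108. The pre-S values were 1.408, 1.205, 1.137 and 1.095. Imminent division stayed above the 3 other groups at every distance, without overlap of libraries. Against pre-S, 0 of the 136 pairs nearest the ends were called in that comparison's own test, with a median log2 difference of 0.498.

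**Figure D4:**
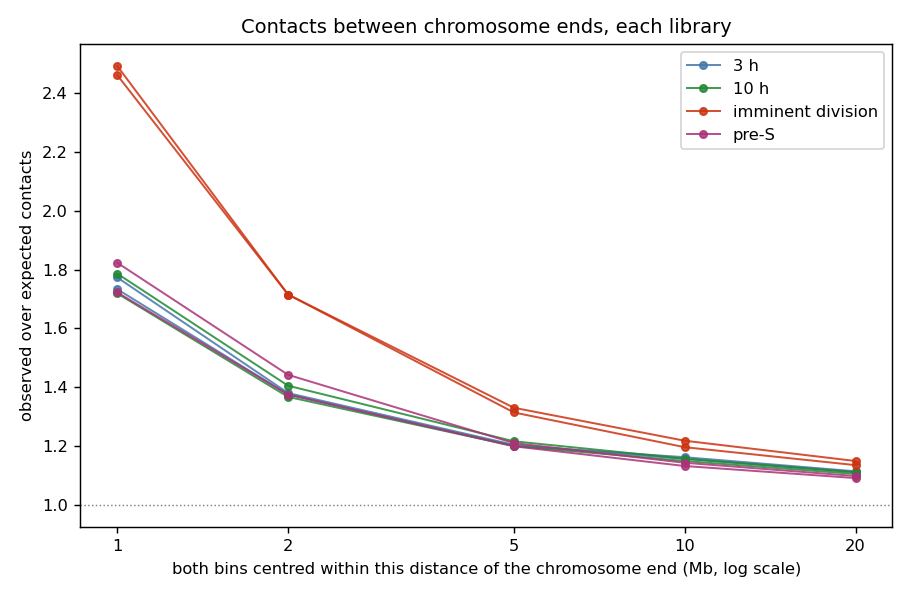
O/E of contacts between bins of different autosomes that both lie within a given distance (Mb, log axis) of the end of their chromosomes away from the centromere, 1 line per library. The 2 imminent division lines start at 2.492 and 2.461 and lie above the other 6, which start between 1.719 and 1.823.

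The falls at imminent division gathered on bins inside chromosomes. Bins were ranked by the number of falls they took part in, after these were seen. The bin of Bank1 and Ppp3ca on chromosome 3 took part in 18 falls with 10 other chromosomes (and in 8 rises), that of Lpp on chromosome 16 in 15, and that of Jarid2, which encodes a partner of Polycomb repressive complex 2, in 13. A bin beside that of Myc, without a protein-coding gene start, took part in 11 (and in 5 rises). A chromosome 4 bin with Gng10 and Ugcg took part in 9. The bins of Foxo1, Myc and, on chromosome 9, Rplp1 and Tle3 took part in 8 each. In all, 337 bins took part in the 312 falls. The balance depended on the scaling. With library totals alone, the Bank1 bin took part in 3 falls and 45 rises, and the Myc bin in 6 and 6. The bins of Lpp, Jarid2 and Foxo1 and that beside Myc had 14, 26, 9 and 12 falls, and 4, 5, 1 and 9 rises. With coverage corrected for, the counts of falls also moved with the libraries. Without imminent division replicate 2 the Bank1 bin had 3 falls, the Jarid2 bin and that beside Myc 2 each, and the bins of Lpp, Foxo1 and Myc 0. Without replicate 1 of that group these counts were 9, 6, 8, 6, 3 and 1. Without 10 h replicate 1 they were 3, 4, 3, 0, 1 and 1, and without 10 h replicate 2 they were 2, 2, 2, 1, 0 and 0.

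The fall with the smallest p joined the Jarid2 bin (chr13:44000261-44999959) to the bin beside Myc (chr15:61999844-63000222). Its O/E was 4.06 and 5.25 at 3 h, then 6.89 and 5.42 at 10 h, then 3.11 and 2.63 at imminent division, and 4.3 and 3.77 in pre-S. It was highest at 10 h and lowest at imminent division (log2 -1.096 ± 0.135, edgeR adjusted p = 1.8e-09). The Bank1 bin with a bin of chromosome 1 that holds olfactory receptor and interferon-inducible Ifi200 genes (chr1:172999974-174000253) went from 4.26 and 6.13 at 10 h to 2.1 and 2.22 at imminent division, and was 4.02 and 3.36 in pre-S (log2 -1.296 ± 0.195, edgeR adjusted p = 1.99e-05).

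Bach2, a repressor that delays plasma cell differentiation, shared in another named fall. Its bin (chr4:32000053-32999876) and a bin of chromosome 10 with the ribosomal protein genes Rpl41 and Rps26 (chr10:128000486-129000060) had O/E of 2.43 and 2.49 at 3 h, then 2.68 and 2.76 at 10 h, then 1.22 and 1.26 at imminent division, and 2.01 and 1.89 in pre-S. All 8 libraries lay above 1, with imminent division lowest and pre-S between (log2 -1.133 ± 0.189, edgeR adjusted p = 0.000456). The chromosome 19 end bin that rose with chromosome 16 fell with the first bin of chromosome 8 that holds Insr, the insulin receptor (log2 -0.923 ± 0.154, edgeR adjusted p = 0.000456).

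Loci of the B cell list met each other across chromosomes more than their coverage would give. Most are B cell regulators or surface receptors, and Twistnb, of the RNA polymerase I complex, is also on the list. The list held 18 genes in 18 bins, 14 of them in the A compartment, with 143 pairs on different autosomes. Over these pairs, O/E was 1.448 and 1.473 at 3 h, then 1.563 and 1.514 at 10 h, then 1.493 and 1.458 at imminent division, and 1.552 and 1.516 in pre-S, while A-A pairs at large lay between 1.33 and 1.472. From 10 h to imminent division 1 of the 143 pairs was called, a fall (0.699%, against 0.0141% of all pairs tested), and 55.9% had a negative log2 change, as did 49.9% of all pairs tested.

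That pair was Foxo1 with Myc, the growth-promoting transcription factor. Its counts were 56 and 95 at 3 h, then 60 and 77 at 10 h, then 57 and 77 at imminent division and 46 and 33 in pre-S. In O/E, which takes depth and coverage into account, these were 3.71 and 4.05, 3.8 and 3.62, 2.04 and 1.93, and 3.11 and 2.32. Imminent division was lowest and did not overlap with any other group (log2 -0.902 ± 0.185 SE, edgeR adjusted p = 0.0154). Without any 1 of the 4 libraries of these 2 groups the pair was not called, with adjusted p of 0.109 to 0.349 and log2 changes of -0.942 to -0.855, nor was it by DESeq2. In bins of 2 Mb, Foxo1 with Myc had a log2 change of -0.457 and was not called (edgeR adjusted p = 0.06). With library totals alone it was called (log2 -0.787, edgeR adjusted p = 0.041). Foxo1 with Ebf1, which specifies the B lineage, had a high level without a called change. Mean O/E of that pair was 4.31, 4.66, 3.52 and 3.42 in the 4 groups.

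Locus by locus, the mean contact with the other list bins was highest for Foxo1 (O/E 2.205 and 2.137 at 10 h, then 2.069 and 1.957 at imminent division). It was below 1 for Ell2, an elongation factor used by plasma cells (0.7463 and 0.722, then 0.8197 and 0.8239). Ell2, however, was among the 4 loci that were higher at imminent division without overlap. The others were Prdm1, which drives plasma cell differentiation (1.704 and 1.774, then 1.956 and 1.961), Id2 and Bcl6. Among the 8 that were lower without overlap were Ikzf1, Cd79b, Twistnb, Irf4, Myc, Foxo1 and Pax5. Over all 2380 bins taken in the same way, 33.6% were higher and 18.3% lower without overlap. The remaining 6 loci overlapped.

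Prdm1 stood higher in pre-S too, at 2.134 and 1.951. Cd79b, a signalling chain of the B cell receptor, went the other way in the 2 groups of 33 h, with 1.722 and 1.664 at 10 h, then 1.362 and 1.358 at imminent division and 1.758 and 1.798 in pre-S. Pax5 had 1.806 and 1.785, then 1.696 and 1.649, and 1.721 and 1.852. The Pax5 bin took part in 7 called falls and 6 called rises with bins of all kinds. With library totals alone these were 6 falls and 25 rises.

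At 50 kb, the contacts summed over the 143 pairs of loci peaked near the gene starts. With both bins within 100 kb of the gene start, O/E was 2.137 and 2.019 at 3 h, then 2.232 and 2.001 at 10 h, then 1.993 and 1.777 at imminent division, and 2.13 and 2.158 in pre-S. With both bins 500 kb to 1 Mb away, all 8 libraries lay between 1.178 and 1.257. Both imminent division libraries were lowest near the gene starts, although 1.993 lay just below the 2.001 of a 10 h library. Not every locus had such a peak. Bcl6, met by bins near the other gene starts, had a mean of 1.97 within 100 kb of its own start at 10 h. It had 2.6 at 500 kb to 1 Mb from that start. No other gene starts were taken for comparison.

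**Figure D5:**
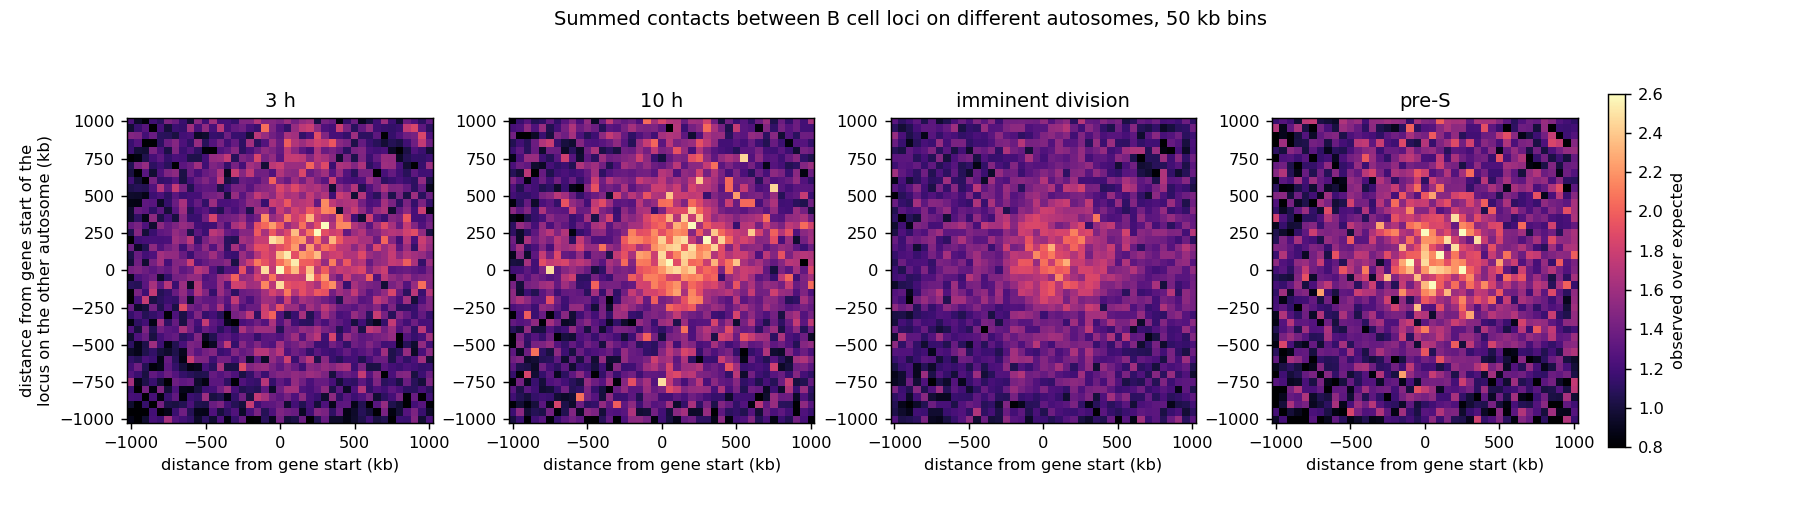
Summed contacts of the 143 pairs of B cell loci on different autosomes in 50 kb bins, by distance from each gene start (kb, increasing with genome coordinate), as O/E for the 2 libraries of each group together. The centre is brighter than the surroundings in all 4 groups and dimmest at imminent division, where the mean within 100 kb was 1.89 against 2.08, 2.12 and 2.14 at 3 h, at 10 h and in pre-S.

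Pre-S cells were compared with those of 10 h in the same way. Of all pairs of autosomes, 5.26% were called, 5 that rose (2.92%) and 4 that fell (2.34%), and 7 of these 9 involved chromosome 9. The widest change, a fall of 16 with 19 (log2 -0.071), was not called. Its O/E was 1.139 and 1.098 at 10 h and 1.067 and 1.062 in pre-S. For some pairs, 8 with 11 (log2 -0.006) among them, the test statistic was near 0 and gave no SE. A lack of calls here therefore does not show that nothing changed. Chromosome 9 with 15 had O/E of 1.005 and 1.013 at 3 h, then 1.012 and 1.015 at 10 h, then 1.016 and 1.017 at imminent division, and 1.066 and 1.051 in pre-S. The pre-S libraries lay above the 6 others (log2 0.063 ± 0.007, edgeR adjusted p = 0.00228). Chromosome 9 with 11 (log2 0.059) and with 19 (log2 0.061) rose too, while 9 fell with the long chromosomes 1 (log2 -0.040), 2 (log2 -0.041) and 3 (log2 -0.057) and with 8 (log2 -0.034). Part of this was shared by imminent division. There 9 with 19 had O/E of 1.147 and 1.151, against 1.152 and 1.134 in pre-S. From 10 h to imminent division, 9 also fell with 2 (log2 -0.020), 3 (log2 -0.037) and 8 (log2 -0.033), all called. With 1 it did not (log2 -0.002, not called).

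The interchromosomal ends on chromosome 9 were 5.662% and 5.648% of all such ends in pre-S, 5.843% and 5.853% at 10 h, and 5.673% and 5.773% at imminent division. O/E divides by these shares, and when library totals alone were corrected for, the 3 rises became log2 -0.002 with 15, -0.08 with 19 and -0.006 with 11. With those totals 80 pairs were called in pre-S against 63 at imminent division, so which of the groups had more calls depended on the scaling. DESeq2 called 56 in pre-S and 100 at imminent division. The count of calls without 10 h replicate 2 was 0, without pre-S replicate 1 it was 2, and without either imminent division library 48.

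At 1 Mb, pre-S against 10 h gave 15 calls (0.000676%), 8 rises (0.00036%) and 7 falls (0.000315%), and among the lists of loci 2 rises joined bins of zinc finger genes and no other list held a called pair. Of the 8 rises, 5 had an end on chromosome 9, in its last 10 Mb each time, while 10.7% of pairs tested had an end on chromosome 9. One joined chr9:123000327-123999999 (Tmem42, Tgm4 and Zdhhc3) to chr2:32000152-32999946, with the ribosomal protein gene Rpl12. Its O/E was 1.62 and 1.76 at 3 h, then 1.2 and 1.34 at 10 h, then 1.78 and 2.27 at imminent division, and 3.01 and 2.79 in pre-S (log2 1.178 ± 0.209, edgeR adjusted p = 0.0157). The pre-S libraries were highest.

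The rise with the smallest p in this comparison joined bins of chromosomes 18 and 19. The bin of chromosome 18 (chr18:54999795-55999943) had no protein-coding gene start. That of chromosome 19 (chr19:58000038-59000102) held Gfra1, a receptor for a neurotrophic factor. The pair had O/E of 1.65 and 1.78, 1.46 and 1.51, 2.41 and 2.16, and 3.78 and 2.94 in the order of groups (log2 1.182 ± 0.197, edgeR adjusted p = 0.00572). Both 33 h groups lay above both early groups, pre-S most. Of the 7 falls, 6 joined 2 B bins, as did 45.5% of pairs tested, such as those of Negr1 on chromosome 3 and Rbms3 on chromosome 9, with counts of 24 and 39 at 10 h and 10 and 3 in pre-S (log2 -2.105 ± 0.385, edgeR adjusted p = 0.0251). Without either library of 10 h, or without pre-S replicate 1, no pair of bins was called.

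The 2 groups of 33 h differed from each other directly. Of the pairs of autosomes, 62.6% were called between imminent division and pre-S, 51 higher (29.8%) and 56 lower (32.7%) at imminent division. Chromosome 16 with 19, given above, had the widest difference (log2 0.182 ± 0.011, edgeR adjusted p = 1.41e-05), followed by 11 with 19, 11 with 17 and 10 with 11 among those higher, and by 8 with 19, 5 with 19, 11 with 18 and 18 with 19 among those lower. Corrected for library totals alone, 17 pairs were called, and without pre-S replicates 1 and 2 the calls numbered 60 and 62.

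At 1 Mb, 24 pairs of bins differed (0.00108%), 14 higher (0.000631%) and 10 lower (0.00045%) at imminent division, and 12 of the 14 joined 2 B bins (85.7%, against 45.5% of pairs tested). A bin of chromosome 15 (chr15:70000048-70998854) and a bin of chromosome 19 (chr19:50999976-51999604) had no named gene. Their O/E was 4.48 and 4.62 at 3 h, then 3.59 and 4.21 at 10 h, then 4.81 and 4.81 at imminent division, and 2.07 and 1.59 in pre-S (log2 1.375 ± 0.208, edgeR adjusted p = 0.000145). The pre-S libraries were lowest, and the other 3 groups lay close together. Slitrk5 and Cdh9, neuronal adhesion genes, lay in another such pair (5.19 and 6.23 against 2.09 and 2.11).

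Among pairs lower at imminent division than in pre-S was that of the major histocompatibility genes H2-K1 and neighbours (chr17:34000348-35000010) with Gpnmb and Igf2bp3 on chromosome 6 (chr6:49000121-49999960). It had O/E of 2.65 and 2.53 in pre-S and between 0.973 and 1.51 in the other 6 libraries (log2 -1.360 ± 0.233, edgeR adjusted p = 0.00529). Without imminent division replicate 2, or without pre-S replicate 1, no pair of bins was called in this comparison. Without imminent division replicate 1 the calls numbered 5, without pre-S replicate 2 there was 1, and DESeq2 called 0.

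The 10 highest levels between 1 Mb bins at 3 h, among pairs with a mean count of at least 20 per library, are described without a test, since they were chosen by their values there, and none of these pairs was called in any of the 4 comparisons. The highest was a bin of chromosome 4 with the zinc finger genes Zfp991, Zfp988 and Zfp978 (chr4:147049300-148000814) and the bin of Asap2 on chromosome 12 (chr12:20000066-20999321). The O/E values were 29.1 and 28.2 at 3 h, then 27.5 and 29.7 at 10 h, then 35.7 and 28.4 at imminent division, and 33.0 and 31.8 in pre-S. Of its counts, 95% lay in a single 50 kb bin of chromosome 12, and whether reads from near-identical copies were placed there was not tested.

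The histone gene clusters were next. The bin of the Hist2h genes (chr3:95999613-96999662) and a bin of chromosome 13 that holds Hist1h genes and vomeronasal receptors (chr13:22999936-24000011) had O/E of 12.4 and 14.2, 14.7 and 14.1, 11.8 and 10.9, and 12.4 and 12.4 in the order of groups. The highest 50 kb pair inside, with Hist2h4, Hist2h3b and Hist2h2bb on one side and Hist1h4f and Hist1h1d on the other, held 2.41% of the counts, so the contact was spread over the clusters. These genes supply histones for newly made DNA and are known to gather at a nuclear body.

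Other high pairs joined gene-dense or B cell bins. The bin of Aurkb on chromosome 11 and a bin of chromosome 19 with Slc29a2 (chr11:69000421-70000039, chr19:4999901-5999676) had O/E of 11.5 and 13.2 at 3 h and 9.87 and 9.45 in pre-S. The Bank1 bin with the bin of Btg1 (chr10:96000106-97000020) stayed at 9.55 and 10.7, 9.75 and 10.2, 9.97 and 9.08, and 10.6 and 9.04. The groups of this pair overlapped. The same Bank1 bin took part in 18 falls with coverage corrected for, and in 3 falls and 45 rises with library totals alone. The bin of Zfp553 on chromosome 7 and that of Rps15 on chromosome 10 (chr7:127000004-127999899, chr10:79999760-80999826) had mean O/E of 11.5 at 3 h, then 10.5 at 10 h, then 8.38 at imminent division and 8.23 in pre-S. The H2-K1 bin with the gene-dense bin of Aatk near the end of chromosome 11 (chr11:120000091-120999938) went from 8.03 and 9.82 at 10 h to 11.2 and 10.3 at imminent division and 8.8 and 8.31 in pre-S.

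Some of the highest pairs of 2 B bins rested on few counts. One joined a bin of chromosome 2 without a named gene to the bin of Negr1, a neuronal adhesion gene (chr2:171000008-172000088, chr3:155999531-156999934). Its O/E was 12.8 and 10.4 at 3 h, then 4.74 and 7.54 at 10 h, then 4.7 and 5.86 at imminent division, and 4.67 and 4.81 in pre-S. Its counts were 15 to 45 per library. Bins of chromosomes 12 and 18 without named genes had O/E of 9.95 and 5.37, 5.13 and 4.93, 4.6 and 5.42, and 3.75 and 3.23 in the order of groups. The 3 h and imminent division libraries overlapped. Pairs taken for a high value at 3 h tend to lie lower elsewhere by that choice, so nothing is read from their order over the groups. The bins of Xkr4 on chromosome 1 and Zfp40 on chromosome 17 stayed between 8.22 and 11.2 in all 8 libraries.

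Families of genes spread over several chromosomes were read as lists, without tests. The 12 pairs of histone cluster bins had mean O/E of 4.298 ± 0.326, 4.497 ± 0.126, 4.273 ± 0.323 and 4.373 ± 0.16 in the 4 groups (SD, n = 2), and the 3 pairs of immunoglobulin loci had 3.424 ± 0.488, 3.437 ± 0.268, 3.376 ± 0.0613 and 3.4 ± 0.0467. In neither list was a pair called in any comparison, and all groups overlapped. Bins of ribosomal protein genes had 1.648, 1.669, 1.621 and 1.687, with 4 of 3366 tested pairs that fell at imminent division (0.119%, against 0.0141% of all pairs tested) and 0 that rose. Bins of zinc finger genes had 1.259, 1.268, 1.248 and 1.273, with 7 rises and 3 falls in 14212 (0.0211% fell). Of all pairs tested, 0.0086% rose. Without imminent division replicate 2, the zinc finger bins had 2 rises and 0 falls and the ribosomal protein bins 0 calls.

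Families of chemosensory receptors act in the nose. Vomeronasal receptor bins had O/E of 1.298 and 1.314 at 3 h, then 1.292 and 1.317 at 10 h, then 1.342 and 1.346 at imminent division, and 1.322 and 1.279 in pre-S. Imminent division was highest without overlap. Olfactory receptor bins were nearer 1 and lay between 1.039 and 1.063 in all 8 libraries. In neither family was any pair of bins called.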

How the data were processed

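The deposited values are raw counts of read pairs, 1 file per library, for pairs of 50 kb bins, which the authors made with diffHic (cutadapt, bowtie2) on mm10, after removal of duplicates, dangling ends and overlong fragments. The files name no coordinates, so bins were rebuilt from MboI fragments of GRCm38. Autosomal bins with over 10% undetermined sequence, or with interchromosomal coverage beyond 4 times above or below the median, were left out, which kept 47332 of 48088. Kept bins were summed to 2380 bins of 1 Mb.

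Expected counts were the product of interchromosomal coverages. Counts were tested in a one-way layout over all 8 libraries with edgeR 4.0.16 (quasi-likelihood, robust) in R 4.3.3, with the log expected count as offset, 4 contrasts and Benjamini-Hochberg adjustment over all pairs of autosomes or all 2220415 pairs of bins. Compartments were signs of the first component of the maps (on chromosome 18, component 2, which followed GC content more closely). Single values per library were compared by a two-sided exact permutation test of the F statistic over 2520 arrangements. Each SE given with an edgeR log2 change was the size of that change over the square root of its F statistic. It thus rests on a spread moderated over pairs, not on the replicates of that pair alone. Scripts were tested on simulated counts.

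Pairs named were, per contrast and direction, the 4 called with the largest change (chromosomes) or smallest p (bins, over 2 Mb apart) whose groups did not overlap, the 10 highest at 3 h with a mean count of at least 20, and the loci of the B cell list; some of these pairs and loci are not reported here. At most 3 genes are named per bin, list genes first, then other protein-coding genes. Symbols that begin with Gm or end in Rik were skipped. A bin without a named gene may therefore hold other genes. Members and lists were chosen with earlier results of these data known. Alternatives were other offsets, DESeq2 1.42.0, bins of 2 Mb, filters and left-out libraries. Read pairs are not independent molecules.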

Additional observations from a re-analysis of the deposited data

Results flagged for a closer look

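The 2 groups collected at 33 h differed from each other in a direct test. In edgeR's quasi-likelihood test, 107 pairs of autosomes and 24 of 2220415 pairs of 1 Mb bins differed between imminent division and pre-S. Corrected for library totals alone, 17 pairs of autosomes differed, and with a library left out 60 to 132. At 1 Mb, 0 pairs of bins were called by DESeq2 and 0 without imminent division replicate 2 or pre-S replicate 1. The groups also differ in strain, reporter and gate, which cannot be told apart from the stage of the cells.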

How the results depend on the processing

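All 503 pairs of 1 Mb bins called between 10 h and imminent division kept their direction in each 1 Mb setting that tested them (481 pairs at a mean count of at least 10), and 501 did so as bins of 2 Mb. Their number depended on the processing. For pairs of autosomes, library totals with TMM factors gave 63 calls for imminent division against 10 h, 80 for pre-S against 10 h and 17 for imminent division against pre-S, and DESeq2 gave 56 for pre-S. Under those totals the named pre-S rises of chromosome 9 turned to log2 -0.002 (with 15), -0.08 (with 19) and -0.006 (with 11); the cause was not tested, though the share of ends on chromosome 9 was lower in pre-S. For 1 Mb bins the same totals gave 2152, 812 and 571 calls in those contrasts and 0 for 10 h against 3 h. A mean count of at least 10 gave 810 calls at imminent division and 48 between the 33 h groups, with fewer pairs tested. Bins of 2 Mb gave 5528, 1004 and 903, and 3 for 10 h against 3 h. DESeq2 gave 1, 0 and 0, and 0. The cause was not tested.

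With a library left out, calls among autosome pairs ranged from 55 to 131, 0 to 48 and 60 to 132, with 0 for 10 h against 3 h. Among 1 Mb bins they ranged from 14 to 614, 0 to 19 and 0 to 41, and 0 to 1 for 10 h against 3 h. Adjusted p-values of the exact permutation tests with a library left out ranged from 0.04571 to 0.1429 for gene-poor pairs, the last 20 Mb and the mitochondrial share, from 0.04898 to 0.1429 for the first with the last 20 Mb and from 0.04898 to 0.16 for the same relative position. They ranged from 0.1143 to 0.3918 for A-A, 0.04571 to 0.5619 for A-B, 0.1524 to 0.619 for B-B, 0.04571 to 0.5299 for A-A times B-B over A-B squared, 0.239 to 0.7333 for gene-dense with gene-dense, 0.1796 to 0.613 for gene-dense with gene-poor and 0.1143 to 0.3429 for the interchromosomal share. Values under 0.05 arose only without pre-S replicate 2. No chromosome's own share passed.

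Same-numbered libraries did not deviate together (r of -0.481 to 0.256), so the numbers were not taken as pairs. With the replicate number as a block, 104, 8 and 100 pairs of autosomes and 386, 15 and 13 pairs of bins were called.

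The comparison of single bin pairs was coarse, and the part of depth in this was not tested. Interchromosomal counts are sparse at 1 Mb, and changes under the SE of a typical pair could not be called.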

Other observations

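Read pairs that join the mitochondrial genome, which lies outside the nucleus, to autosomes numbered 26.3 and 37.6 per 1000000 autosomal read pairs at 3 h, then 27.7 and 35.8 at 10 h, then 87.3 and 64.3 at imminent division, and 76.7 and 69.0 in pre-S. The 33 h libraries lay above the early ones without overlap, and the part of this in the interchromosomal share was not tested. The share of mitochondrial read pairs that went to autosomes was 88.95% to 93.87% in all 8 libraries.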
